A study of Mus musculus with 12 samples.

Results

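The 7 genes described here encode receptors through which growth factors act on dendritic cells and their precursors: Flt3, Kit, Csf1r, Csf2ra, Csf2rb, Csf2rb2 and Kdr. They were taken by name, and their transcripts were summed to genes, which gave 7 of the 53458 genes in the tables. Each passed the filter on low counts, with a lowest estimated count of 31 in a library, for Kdr. The cells are type 1 conventional dendritic cells (cDC1, which present material from dead cells to CD8 T cells) of the mouse inguinal lymph node. Their RNA was sequenced in 12 libraries, 3 in each of 4 groups. NoTumor-NoCD40 had neither tumor nor agonist, NoTumor-CD40 had an agonist of the activating receptor CD40 and no tumor, Tumor-NoCD40 had a KPC tumor under the skin and no agonist (KPC commonly denotes a pancreatic cancer model of mice), and Tumor-CD40 had both. The labels used here give no strain, age, dose, time of treatment, sort gate or number of animals per library, so the p-values reflect how far these libraries spread, which may be technical variation.

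Flt3 is the receptor of Flt3 ligand, the growth factor on which conventional dendritic cells depend for their development and upkeep. Kit is the receptor of stem cell factor, and Csf1r that of CSF-1 and IL-34, which sustain macrophages and monocytes. Csf2ra is the ligand-specific chain of the GM-CSF receptor. It signals together with Csf2rb, a chain shared by GM-CSF, IL-3 and IL-5, whereas Csf2rb2 is a mouse copy of that chain that serves IL-3 alone. Kdr is VEGF receptor 2, best known from blood vessel endothelium. In the cell these receptors signal through kinases of their own (Flt3, Kit, Csf1r, Kdr) or through bound JAK2 and STAT5 (the Csf2 chains).

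The genes lie on GRCm38 at chr5:147330741-147400489 (Flt3, minus strand), chr5:75574916-75656722 (Kit, plus), chr19:61223957-61228429 (Csf2ra, minus), chr15:78325752-78353847 (Csf2rb, plus), chr15:78282507-78305721 (Csf2rb2, minus) and chr5:75932827-75978458 (Kdr, minus). All 7, with Csf1r placed further on, are annotated as protein coding. Kit and Kdr are neighbors on chromosome 5, and Csf2rb and Csf2rb2 lie beside each other on chromosome 15 in opposite directions. Kit has 8 annotated transcripts in the tables, as has Csf2rb, Csf2rb2 has 4, Kdr 3, Flt3 and Csf1r 2 each, and Csf2ra 1.

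Because Csf2rb and Csf2rb2 are near copies, the division of reads between them is uncertain, and the sequences show why. Their coding sequences are identical at 95.2% of 2628 aligned bases, with 125 mismatches, and 28.9% of the 31-base words of the transcript Csf2rb-201 also occur in Csf2rb2-201. The longest identical coding run is 242 bases, and its first 120 bases (Csf2rb at chr15:78348577-78348696, plus strand; Csf2rb2 at chr15:78284752-78284871, minus strand) are the same letters in both genes.
Shared run: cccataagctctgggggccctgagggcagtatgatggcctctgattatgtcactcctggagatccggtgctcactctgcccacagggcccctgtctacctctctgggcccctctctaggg
Elsewhere the copies can be told apart. In a stretch of 90 coding bases (Csf2rb at chr15:78338897-78338986, Csf2rb2 at chr15:78294345-78294434) they differ at 16 bases, in capitals.
Csf2rb-201: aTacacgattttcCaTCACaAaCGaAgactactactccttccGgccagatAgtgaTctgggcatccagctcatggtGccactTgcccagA
Csf2rb2-201: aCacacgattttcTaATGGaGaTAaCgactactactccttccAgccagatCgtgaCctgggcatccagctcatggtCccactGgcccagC

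Kit has 2 full-length coding transcripts that differ in their coding sequence by 12 bases at an exon end. Kit-201 (2937 coding bases) holds them and Kit-204 (2925 coding bases) does not. The window below spans the junction of neighboring exons between chr5:75639123 and chr5:75640516 on the plus strand, with 24 bases on each side, and capitals mark the bases that only Kit-201 has.
Kit-201: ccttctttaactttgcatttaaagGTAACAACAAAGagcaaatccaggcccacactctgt
Kit-204: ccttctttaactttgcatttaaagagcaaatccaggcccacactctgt

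Kdr was the member whose RNA differed with the agonist, so the 250 bases before its RefSeq start are shown (chr5:75978456-75978705, minus strand, RefSeq on GRCm38.p6). Capitals mark matches to an NF-kB motif (3 G, any 5 bases and 2 C) and to the GC box GGGCGG, both searched on both strands.
Kdr upstream: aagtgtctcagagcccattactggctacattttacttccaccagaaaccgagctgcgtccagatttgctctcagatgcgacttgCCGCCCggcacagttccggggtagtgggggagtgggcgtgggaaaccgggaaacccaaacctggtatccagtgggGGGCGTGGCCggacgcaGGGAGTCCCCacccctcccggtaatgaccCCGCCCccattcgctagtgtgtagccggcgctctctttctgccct
The NF-kB letters occurred at -91 to -82 and at -74 to -65 from the start, and the GC box, on the opposite strand, at -166 to -161 and at -45 to -40. The motifs do not overlap here. Of 32851 upstream stretches of this length, 45.8% held the NF-kB letters and 32.7% the GC box, so matches of this kind are common. The letters of the interferon motif ISRE (2.98% of stretches) and TTCNNNGAA (GAS, 7.02%) were not found in this window. RefSeq entries were at hand for 5 of the 7 members. Csf2ra held 2 matches to the NF-kB letters, Kit 1, and Flt3 and Csf2rb2 0.

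The label of the cells was checked on cDC1 markers. Xcr1, the chemokine receptor that defines cDC1, ran from 9.92 to 123.7 TPM (a level scaled by transcript length and library size), and Clec9a, a cDC1 receptor for dead cells, from 26.4 to 259.4 TPM. Libraries carried between 22855143 and 27163393 estimated counts. Among markers of other cells, 8 of 9 B cell genes, 3 of 14 monocyte and macrophage genes and 1 of 8 plasmacytoid dendritic cell genes rose with the agonist in tumor-bearing mice. None of the tested mast cell and basophil, endothelial, cDC2, Langerhans, T cell or granulocyte genes (edgeR, adjusted p over all 18095 genes) passed there. Without tumor, 1 gene each of the monocyte and macrophage, plasmacytoid, cDC2 and endothelial lists rose. In the average over tumor states 8 of 9 B cell, 2 of 8 plasmacytoid, 2 of 14 monocyte and macrophage, 2 of 6 granulocyte and 1 of 12 endothelial genes rose. There 1 monocyte and macrophage and 1 Langerhans gene fell. Granulocyte medians were 3.98 without and 3.57 with tumor (log2 fold change). Summed over the B cell list, the normalized CPM (counts scaled to the size of each library) were 794.1, 709 and 2059 in Tumor-CD40, against 39.6 to 243.4 in the other 9 libraries.

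Members differed widely in level. On the TPM of full-length coding transcripts, which leaves out short and noncoding transcripts, Flt3 was the highest member in every group, at 103.5 ± 6.2 in NoTumor-NoCD40, 110 ± 16.6 in NoTumor-CD40, 103.6 ± 9.0 in Tumor-NoCD40 and 87.2 ± 14.8 in Tumor-CD40 (mean ± SD, n = 3 here and below). Its libraries lay above those of the next member, Csf2rb, in each group. Csf2rb followed at 35.9 ± 3.6, 43.1 ± 7.0, 49.2 ± 11.9 and 38.7 ± 6.7, in the same order of groups. In NoTumor-NoCD40 came Csf2ra (32.4 ± 8.4), Csf2rb2 (21.4 ± 3.7) and Kit (20.2 ± 8.4), where Csf2rb overlapped Csf2ra and Csf2rb2 overlapped Kit. Csf1r (0.941 ± 0.528) and Kdr (0.240 ± 0.091) were the lowest there and did not overlap each other. In the agonist groups Kdr overlapped Csf1r. The order depended on leaving out the other transcripts. On TPM summed over all transcripts, the libraries of Flt3 and Csf2rb overlapped in every group. There Csf2rb had the higher mean in Tumor-NoCD40 (148.8 against 105) and in Tumor-CD40 (116.3 against 88.5). In NoTumor-NoCD40 Flt3 was at 104.9 and Csf2rb at 104.8, and Kit held place 3 in every group.

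**Figure D1:**
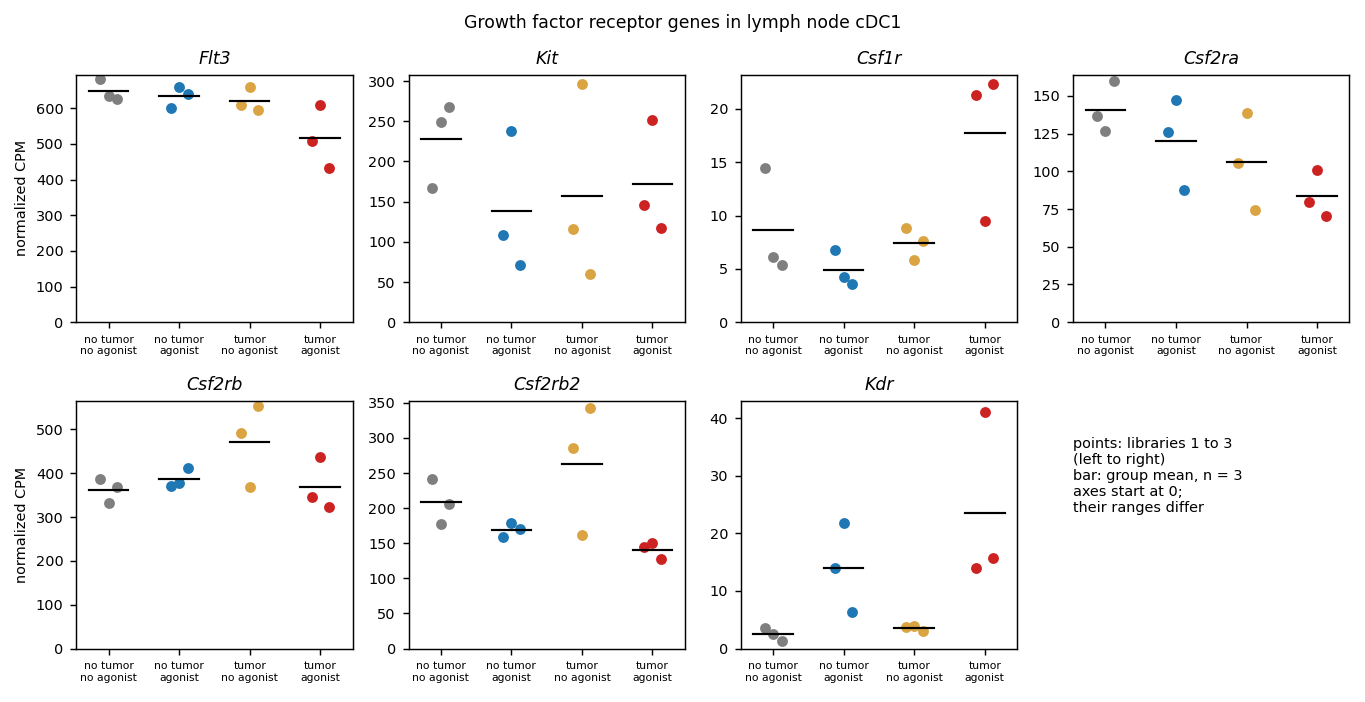
Normalized CPM (vertical axes, starting at 0 and differing in range) of each receptor gene in the 4 groups. Points are libraries 1 to 3 from left to right and bars are means of 3 libraries; Kdr is higher in all 6 agonist libraries (6.27 to 41.0) than in the other 6 (1.27 to 3.92).

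Kdr was the 1 member that rose with the agonist, without and with a tumor. Without tumor 1 of 7 members passed the test, where 1.44% of all genes did, and with tumor 1 of 7, where 0.685% did. The median log2 fold change of the 7 members was -0.23 without tumor (-0.04 over all genes) and -0.26 with tumor (-0.02 over all genes). The tumor comparisons called no member. Without agonist 0 of 7 passed (0% of all genes; at an unadjusted p under 0.05 in edgeR 0 members and 5.82% of all genes, and DESeq2 called 29 genes and 0 members), and library ranges separated for 0 of 7 (8.98% of all genes). With agonist 0 of 7 passed (0.199% of all genes; at an unadjusted p under 0.05 in edgeR 2 members, Csf1r and Csf2ra, and 9.33% of all genes, and DESeq2 called Csf1r). The agonist effect itself was not found to differ with the tumor for any member (0 of 7; 0% of all genes; at an unadjusted p under 0.05 in edgeR 1 member, Csf1r, and 9.8% of all genes, and DESeq2 called 18 genes and 0 members). Comparisons that share a group share its libraries and are given side by side.

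**Figure D2:**
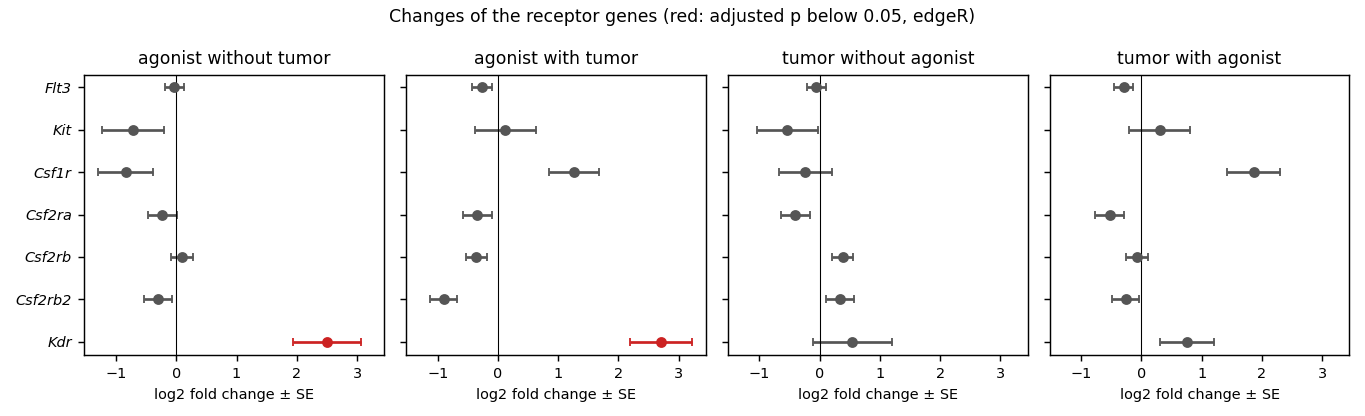
Log2 fold change (horizontal axis) of each receptor gene in the 4 pairwise comparisons, with bars of 1 standard error from the edgeR fit; red marks an adjusted p under 0.05. Only Kdr is red, at 2.50 without tumor and 2.71 with tumor in the agonist comparisons.

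Kdr was nearly silent without the agonist. Its normalized CPM were 3.48, 2.61 and 1.27 in NoTumor-NoCD40 and 3.80, 3.92 and 3.12 in Tumor-NoCD40. With the agonist they were 13.9, 21.8 and 6.27 in NoTumor-CD40 and 13.9, 41.0 and 15.7 in Tumor-CD40. All 6 agonist libraries lay above all 6 others, a separation upward that 1.33% of all genes showed. In edgeR the log2 fold change was 2.50 ± 0.57 (SE; adjusted p = 0.0462) without tumor and 2.71 ± 0.52 (adjusted p = 0.0301) with tumor. Averaged over the tumor states, where 1 of 7 members and 2.52% of all genes passed, it was 2.60 ± 0.38 (edgeR, adjusted p = 0.00264), a 6.07-fold change. The agonist effect with tumor exceeded that without by 0.21 ± 0.80 (edgeR, adjusted p = 0.947; 95% interval -1.52 to 1.94).

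In absolute terms Kdr stayed low, with 0.777 to 4.43 TPM under the agonist and 31 to 104 estimated counts in a library without it. The call in each single comparison lay close to the threshold. Over the 12 runs that left out 1 library, the log2 fold change was 2.02 to 2.85 without tumor and 2.04 to 2.97 with tumor (edgeR). Without tumor the call was lost in 8 of these 12 runs and with tumor in 3 of 12. The average over tumor states passed in 12 of 12. With tumor the call was lost without Tumor-NoCD40 library 1 (edgeR, adjusted p = 0.131), without Tumor-NoCD40 library 3 (0.101) and without Tumor-CD40 library 2 (0.098), the library with the highest Kdr. The libraries whose removal ended the call without tumor were the 3 of NoTumor-NoCD40, 1 and 2 of NoTumor-CD40, 1 of Tumor-NoCD40 and 1 and 3 of Tumor-CD40, with adjusted p up to 0.214 in edgeR. The tumor libraries among these are not part of that comparison. Their removal left the log2 fold change at 2.497 to 2.506, with adjusted p of 0.0521 to 0.0675 (edgeR).

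Library titles start with a number written like a date (091218, 091318, 091418 or 092518), and the labels do not say what it marks. Inside a title number, Kdr was higher with the agonist in 5 of 5 pairs, by 1.64 to 3.10 on the log2 scale. Nearly all Kdr signal came from the full-length coding transcript Kdr-201, which held 94.7% to 100% of the TPM of the gene. The genes whose CPM over the 12 libraries were most like Kdr were Abca13, a lipid transporter (Pearson's r = 0.962), Upp1, uridine phosphorylase (r = 0.939), and Plbd2 (r = 0.897), a description over libraries that share depth and treatment.

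Endothelial cells, the usual source of Kdr, were looked for through 16 marker genes. Of 12 tested, 1 (Esam, an adhesion molecule also on the cDC2 list) rose with the agonist without tumor and 0 with tumor (edgeR). In the average over tumor states, where the call of Kdr was most stable, 1 of 12 rose, Flt4 (1.36 ± 0.29, edgeR adjusted p = 0.0239). The median log2 fold change of the tested genes was above 0 in both, at 1.03 without tumor (9 of 12 above 0) and 1.18 with tumor (10 of 12). Tek, the angiopoietin receptor, was at most 0.036 TPM in any library. Cdh5, the cadherin of endothelial junctions, was at 0.0607 TPM in Tumor-CD40 library 2, where Kdr was 4.43 TPM, and Tie1 was 0.0123 TPM there. In Tumor-CD40 library 3 the same genes were higher, at 0.888 TPM for Cdh5, 0.331 TPM for Tie1 and 0.847 TPM for the endothelial mucin Emcn, beside 1.78 TPM for Kdr. The summed list, which also holds Flt1 and Flt4, ran from 82.9 to 98.1 CPM in NoTumor-NoCD40, 113.5 to 145.2 in NoTumor-CD40, 94.6 to 105.9 in Tumor-NoCD40 and 101.3 to 153.8 in Tumor-CD40. In NoTumor-CD40 library 3, which had the highest sum of its group, Cdh5 was listed at 0, but Plvap was 4.76 CPM (0.192 to 0.615 in NoTumor-NoCD40), Tie1 0.595 CPM (0.0767 to 0.115) and Esam 65.3 CPM (13.1 to 26.7), beside 6.27 CPM for Kdr. The part of endothelial RNA in the Kdr values was not tested.

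**Figure D3:**
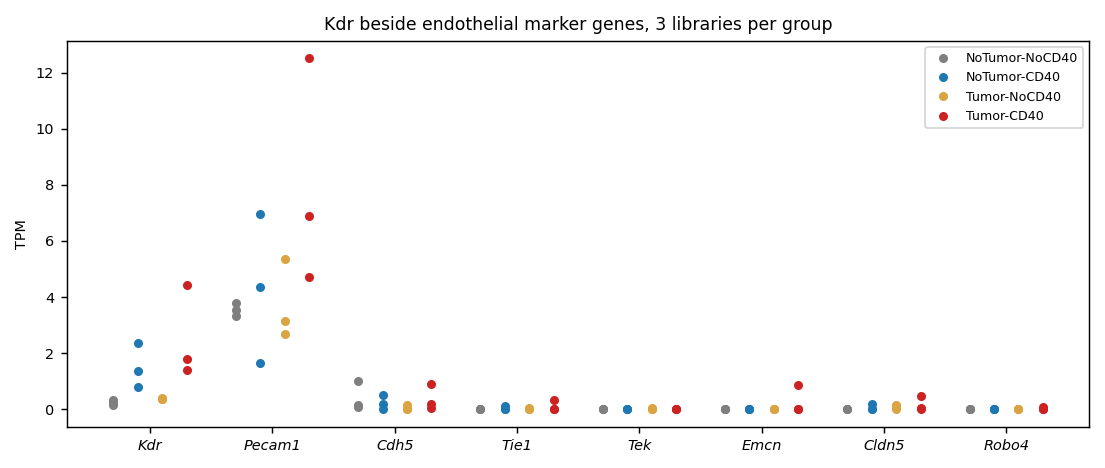
TPM (vertical axis) of Kdr and of 7 endothelial marker genes, 1 point per library, colored by group. The 7 were picked from the 16 listed and leave out Esam and Flt4, which passed in an agonist comparison. Kdr reaches 4.43 in a Tumor-CD40 library in which Cdh5 is 0.0607, and Pecam1, which leukocytes also express, is present in every library. Over the 12 tested genes of the list, the median log2 fold change with the agonist was 1.03 without tumor and 1.18 with tumor (edgeR).

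Flt3 was the steadiest member. Its CPM were 681.8, 632.9 and 626.2 in NoTumor-NoCD40, 599.9, 659.8 and 638.4 in NoTumor-CD40, 608.4, 659.1 and 595.7 in Tumor-NoCD40, and 508.1, 609.4 and 433.3 in Tumor-CD40. The highest library exceeded the lowest 1.57-fold, the smallest range of the 7. No comparison passed: the agonist changed Flt3 by -0.03 ± 0.16 without tumor (log2, edgeR, adjusted p = 0.936; 95% interval -0.37 to 0.31) and by -0.26 ± 0.16 with tumor (adjusted p = 0.631; interval -0.60 to 0.07). Among the genes most like Flt3 were Fmnl2, an actin-binding formin (r = 0.937), and Scp2, a lipid carrier (r = 0.905).

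Kit varied from library to library more than between groups. Its CPM were 167.4, 248.8 and 267.8 in NoTumor-NoCD40, 108, 237.3 and 71.3 in NoTumor-CD40, 116.1, 296.3 and 59.6 in Tumor-NoCD40, and 145.9, 251 and 117.3 in Tumor-CD40. Library 2 was the highest in 3 groups, and the groups overlapped in every comparison. The agonist effect was -0.71 ± 0.51 without tumor (edgeR, adjusted p = 0.477) and 0.12 ± 0.51 with tumor (adjusted p = 0.968). Sorted by title number instead, Kit was 237.3 to 296.3 CPM in the 4 libraries of 091318, 267.8 in the 1 of 092518, 108 to 167.4 in the 4 of 091218 and 59.6 to 117.3 in the 3 of 091418. Without the 4 libraries of 091318, an alternative chosen after seeing the data, the agonist effect on Kit without tumor was -1.27 and passed (edgeR, adjusted p = 0.0477).

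Kit followed the markers of resting cDC1 over the libraries. Against the mean log2(TPM + 1) of 13 resting markers (Xcr1, Clec9a, Irf8, Batf3 and others), Pearson's r was 0.832 (permutation p = 0.00107, 0.015 adjusted over 14 relations) and Spearman's rho 0.804 (permutation p = 0.00268, adjusted 0.0309). Leaving out the 2 libraries farthest from the median of the markers gave r = 0.717. Kit entered here as the TPM summed over all its transcripts. On log2(CPM + 1), also summed over all of them, r was 0.933 (permutation p adjusted 0.00056). With group means removed r was 0.881 (permutation p within groups 0.00383, adjusted 0.0536). With the means of the title numbers removed, r was 0.399 (permutation p within title numbers 0.376, adjusted 0.694). The relation was thus weaker and did not pass within title numbers. With 1 to 4 libraries per number, this cannot show that it is absent there. Against 12 markers of mature dendritic cells (Ccr7, Cd80, Cd83 and others) r was -0.661 (permutation p = 0.02, adjusted 0.0931; rho = -0.65, permutation p = 0.0267, adjusted 0.125).

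The genes most like Kit were Gpr35, a G protein-coupled receptor (r = 0.988), Plekho2 (r = 0.986) and Bri3bp (r = 0.977). Over the title numbers Xcr1 moved in the same order as Kit at its extremes, from 49.5 to 198.5 CPM in 091418 up to 302.6 to 779.8 in 091318, and Ccr7, the homing receptor of mature cells, from 1479 to 3251 CPM in 091418 and from 573.1 to 1642 in 091318. In bulk libraries, fewer resting cells and less RNA per cell cannot be told apart. Mast cells, which carry much Kit, were looked for through the 10 genes of the mast cell and basophil list. These summed to 0.861 to 4.78 CPM in 11 libraries and to 40.5 CPM in Tumor-CD40 library 1, where Kit was 145.9 CPM. Of the 5 tested, 0 passed in either agonist comparison (edgeR). Their median log2 fold change was 0.14 without tumor (3 above 0) and 2.78 with tumor (5 above 0). The part of mast cell RNA in the Kit values was not tested.

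**Figure D4:**
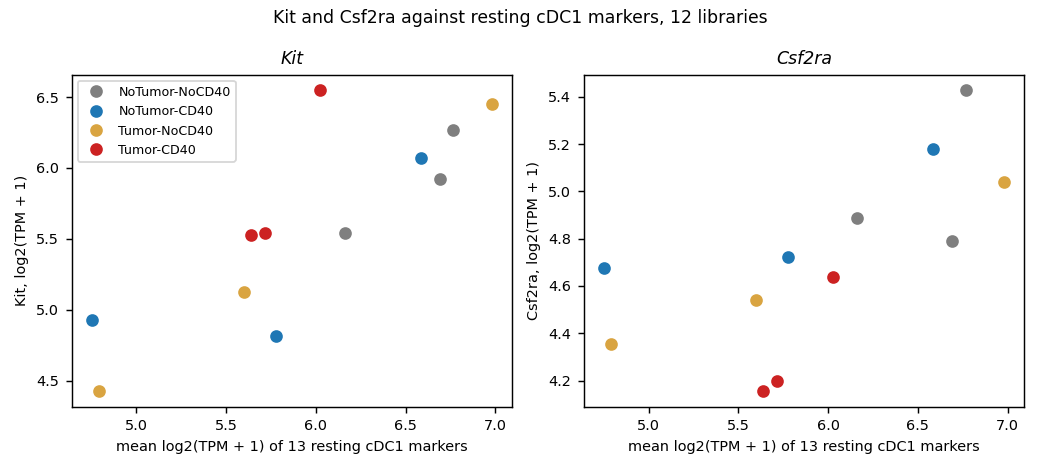
Kit (left) and Csf2ra (right), as log2(TPM + 1), against the mean log2(TPM + 1) of 13 resting cDC1 markers, 1 point per library, colored by group. Kit ranges from 4.43 to 6.55 (Pearson's r = 0.832 for Kit and 0.692 for Csf2ra), but with the means of the title numbers removed r is 0.399 for Kit and 0.197 for Csf2ra.

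The Kit signal was spread over transcripts of very different kinds. Kit-202, a retained intron transcript of only 392 bases, held 26.6% to 62.4% of the TPM of the gene, whereas Kit-201 and Kit-204 together held 19.3% to 38.7%. Most of the summed TPM of Kit was thus assigned to transcripts other than its full-length coding ones, an estimated division. Whether that part came from coding RNA was not tested. The order of levels was given on full-length TPM, with the summed TPM beside it. Group comparisons of Kit used counts and CPM summed over all its transcripts, and the correlations with marker lists the summed TPM, Kit-202 included in each. With protein coding transcripts only, the agonist effect on Kit with tumor was -0.10 (edgeR, adjusted p = 0.982). Among the 2 coding forms shown above, Kit-204 made up 22.4%, 59.3% and 68.6% of their TPM in NoTumor-NoCD40, 43.2%, 85.2% and 9.93% in NoTumor-CD40, 68.6%, 60.9% and 45.3% in Tumor-NoCD40, and 6.88%, 26.0% and 24.95% in Tumor-CD40. With tumor the agonist libraries all lay below the others, while without tumor the groups overlapped. The forms differ by few bases, so the estimated division is uncertain and no test was made on it.

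**Figure D5:**
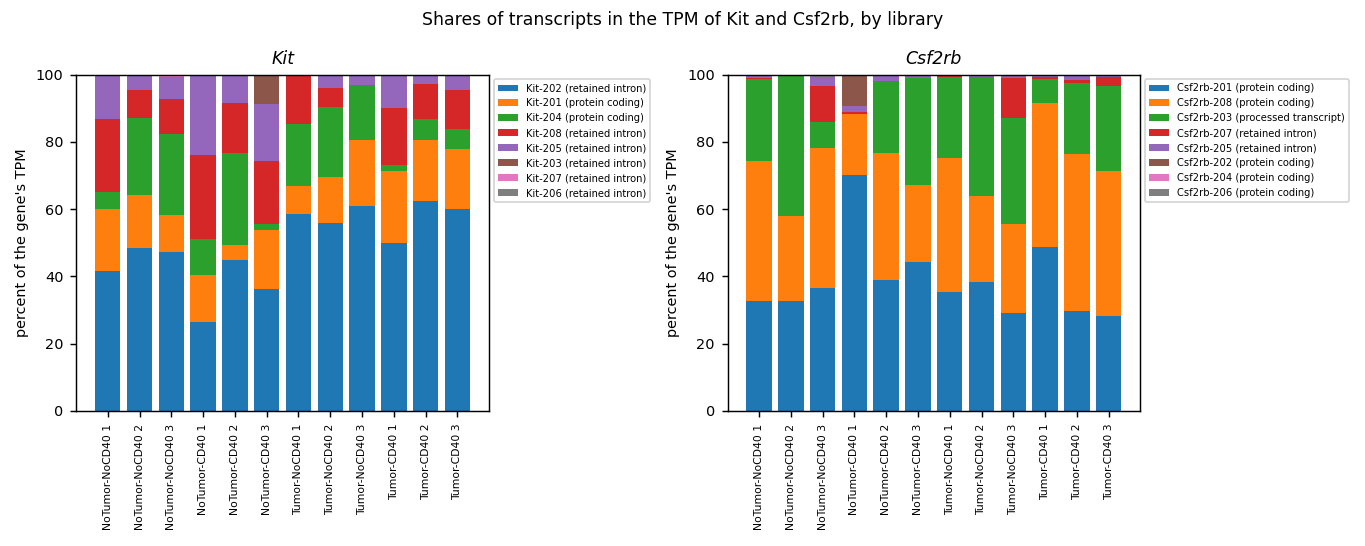
Share of the gene's TPM (vertical axis, percent) held by each transcript of Kit (left) and Csf2rb (right), 1 stacked bar per library. Kit-202 holds 26.6% to 62.4% of Kit, and short transcripts hold a large share of Csf2rb in every library.

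Csf2ra had its highest mean in NoTumor-NoCD40 and its lowest in Tumor-CD40, with no comparison past the test. CPM were 136.3, 126.5 and 159.6 in NoTumor-NoCD40, 125.9, 146.9 and 87.3 in NoTumor-CD40, 105.7, 138.7 and 74.2 in Tumor-NoCD40, and 79.9, 100.6 and 70.1 in Tumor-CD40. The groups overlapped in all 4 comparisons. The agonist effect was -0.23 ± 0.24 without tumor (edgeR, adjusted p = 0.644) and -0.35 ± 0.24 with tumor (adjusted p = 0.699), and the tumor effect with agonist was -0.52 ± 0.24 (adjusted p = 0.534). Against the resting cDC1 markers Csf2ra gave r = 0.692 (permutation p = 0.0132, adjusted 0.0922) and rho = 0.776 (permutation p = 0.00442, adjusted 0.0309), and r = 0.818 without the 2 farthest libraries. With the means of the title numbers removed r was 0.197 (permutation p = 0.578, adjusted 0.694). The most similar genes were the splicing factor Srsf9 (r = 0.930), the kinase Mapk9 (r = 0.928) and the chaperone Dnajb14 (r = 0.927).

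Neither beta chain passed the test. Csf2rb CPM were 386.7, 331.2 and 369.3 in NoTumor-NoCD40, 370.9, 378.3 and 411.7 in NoTumor-CD40, 491.9, 369.6 and 553.5 in Tumor-NoCD40, and 344.8, 436 and 322.9 in Tumor-CD40, with overlap in every comparison. The agonist effect on Csf2rb was 0.09 ± 0.18 without tumor (edgeR, adjusted p = 0.815) and -0.36 ± 0.18 with tumor (adjusted p = 0.535). For Csf2rb2, CPM were 242.2, 177.4 and 206 in NoTumor-NoCD40, 159, 178.7 and 169.9 in NoTumor-CD40, 286.2, 161.8 and 342.2 in Tumor-NoCD40, and 144.9, 150.1 and 128 in Tumor-CD40. With tumor, every agonist library of Csf2rb2 lay below every other one, and without tumor the groups overlapped at 1 library.

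That separation missed the threshold after adjustment. Csf2rb2 differed by -0.90 ± 0.23 with tumor (edgeR adjusted p = 0.101), by -0.30 ± 0.23 without tumor (adjusted p = 0.498) and by -0.60 ± 0.16 averaged over tumor states (adjusted p = 0.0688). It passed with tumor in 3 of 23 alternatives: in DESeq2 (adjusted p = 0.025), without Tumor-NoCD40 library 2 (edgeR, 0.00721) and without the 4 libraries of 091318 (edgeR, 0.0269). With tumor 3 of 7 members had groups that did not overlap (Kdr and Csf1r higher, Csf2rb2 lower), against 11.9% of all genes, and without tumor 1 of 7 (Kdr) against 23.2%. Inside a title number Csf2rb2 was lower with the agonist in 4 of 5 pairs, from -1.41 to 0.01 on the log2 scale.

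As a share of the CPM of both chains, Csf2rb2 made up 36.4% ± 1.9 in NoTumor-NoCD40, 30.4% ± 1.5 in NoTumor-CD40, 35.2% ± 4.1 in Tumor-NoCD40 and 27.9% ± 2.0 in Tumor-CD40. The agonist libraries lay below their controls in each tumor state, at 29.2% to 32.1% against 34.9% to 38.5% without tumor and at 25.6% to 29.6% against 30.5% to 38.2% with tumor, a description that depends on how reads of the shared stretches were divided. Counted as 1 gene, the chains differed by -0.04 ± 0.19 without tumor (edgeR, adjusted p = 0.939) and by -0.53 ± 0.19 with tumor (adjusted p = 0.348). Full-length transcripts held only 28.1% to 70.7% of the TPM of Csf2rb, and 71.5% to 100% of that of Csf2rb2. The gene most like Csf2rb2 was Sik2, a salt-inducible kinase (r = 0.949), then Scube3 (r = 0.933) and the kinase Map4k4 (r = 0.932), and those most like Csf2rb were Cir1 (r = 0.899), Dvl3, a Wnt adaptor (r = 0.887), and Abhd4 (r = 0.871).

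Csf1r, a receptor of macrophages (chr18:61100598-61132149, plus strand), was low throughout and highest in Tumor-CD40. Its CPM were 14.5, 6.14 and 5.37 in NoTumor-NoCD40, 6.78, 4.24 and 3.61 in NoTumor-CD40, 8.80, 5.80 and 7.63 in Tumor-NoCD40, and 21.3, 9.49 and 22.3 in Tumor-CD40. The Tumor-CD40 libraries lay above those of Tumor-NoCD40 and of NoTumor-CD40. No comparison passed in edgeR: the agonist effect was 1.26 ± 0.41 with tumor (adjusted p = 0.264) and -0.84 ± 0.46 without (adjusted p = 0.343), and the difference between these was 2.10 ± 0.62 (adjusted p = 0.495). The effect without tumor rested on NoTumor-NoCD40 library 1: without it the value was -0.25 (edgeR, adjusted p = 0.827), and the difference was 1.5 (edgeR, adjusted p = 0.442). The tumor effect with agonist was 1.86 ± 0.44 (edgeR adjusted p = 0.134). It passed in 4 of 24 alternatives: in DESeq2 (adjusted p = 0.0101), without a filter on low counts (edgeR, 0.0462), with the title number as a block (edgeR, 0.0226) and without Tumor-CD40 library 2 (edgeR, 0.0458). In that comparison 2 of 7 members had groups that did not overlap (Csf1r higher, Csf2rb2 lower), against 12.9% of all genes.

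Of 14 monocyte and macrophage markers, 2 rose with the tumor under the agonist, where 9 lay above 0 and 5 below (edgeR), and 4 of 9 B cell markers rose. The complement gene C1qb was 8.05, 7.39 and 9.12 CPM in Tumor-CD40 and 0.515 to 4.42 CPM in the other 9 libraries, and it was 1 of the 2 (log2 2.81 ± 0.52, edgeR adjusted p = 0.0476), with Marco, a scavenger receptor (4.02 ± 0.76, adjusted p = 0.0445). Siglec1, the sialoadhesin of lymph node macrophages, rose with the agonist in tumor-bearing mice (2.30 ± 0.47, edgeR adjusted p = 0.044). Summed, the 14 monocyte and macrophage genes gave 526 to 694 CPM in NoTumor-NoCD40 and 117.4 to 382 in NoTumor-CD40. In Tumor-NoCD40 they gave 165 to 552.3 and in Tumor-CD40 251.5 to 389.8. Lyz2, lysozyme, alone gave 106.6 to 192.8 in Tumor-CD40 and 253.5 to 318.4 in NoTumor-NoCD40. Gene by gene, the median log2 fold change with the agonist was 0.02 without tumor (8 of 14 above 0) and 1.33 with tumor (9 of 14). For the tumor with agonist the median was 0.72 (edgeR). The gene most like Csf1r was Pou2f2, a transcription factor known from B cells (r = 0.872), followed by C1galt1 (r = 0.866) and Pxdc1 (r = 0.855). The part of other cells in the Csf1r values was not tested.

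Of the ligands of these receptors, 12 were listed and 7 tested, and none passed in either agonist comparison (edgeR; medians 0.49 and 0.26, against -0.04 and -0.02 over all genes). Csf1, the ligand of Csf1r, was 98.0, 65.0 and 43.0 CPM in NoTumor-NoCD40 and 273.1, 116.8 and 380.9 CPM in NoTumor-CD40, groups that did not overlap (1.90 ± 0.55, edgeR adjusted p = 0.107). With tumor Csf1 was 144.4, 39.1 and 222.9 CPM without and 152.9, 65.5 and 89.5 CPM with the agonist (-0.40 ± 0.53, edgeR adjusted p = 0.88). Flt3l, the ligand of Flt3, stayed between 7.56 and 27.8 CPM. Csf2, which encodes GM-CSF, was at most 1.15 CPM, Kitl, the ligand of Kit, at most 1.23 CPM, and Il3 was listed at 0 in all 12 libraries.

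Related receptors had 7 of 9 genes tested, of which 1 rose with the agonist without tumor (median 0.91) and 0 with tumor (median 0.23). The 1 was Il3ra, the IL-3 chain that pairs with Csf2rb and Csf2rb2, at 34.9, 23.3 and 28.4 CPM without and 68.2, 45.3 and 59.1 CPM with the agonist (1.0 ± 0.23, edgeR adjusted p = 0.0488). With tumor Il3ra differed by 0.23 ± 0.23 (adjusted p = 0.813 in edgeR). Flt4, VEGF receptor 3, a relative of Kdr, rose in the average over tumor states (1.36 ± 0.29, edgeR adjusted p = 0.0239), from 1.60 to 4.30 CPM in the 6 libraries without to 4.24 to 12.4 CPM in the 6 with the agonist. Flt1, VEGF receptor 1, did not pass (-0.26 ± 0.40 without tumor, edgeR adjusted p = 0.766; 0.21 ± 0.38 with tumor, adjusted p = 0.917).

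Downstream, 1 of 23 signal transducers and brakes rose with the agonist without tumor and 0 with tumor (edgeR; medians 0.07 and -0.09). Pik3r1, the regulatory subunit of PI3 kinase, was 146.5, 137.3 and 119.5 CPM in NoTumor-NoCD40 and 319.1, 236.8 and 473.2 CPM in NoTumor-CD40 (1.35 ± 0.22, edgeR adjusted p = 0.0111). With tumor Pik3r1 did not pass, but its groups did not overlap. It was 192.2, 153.6 and 186 CPM in Tumor-NoCD40 and 227.6, 287 and 234.6 CPM in Tumor-CD40. In the average over tumor states 1 of the 23 genes rose (edgeR). Of 16 genes that respond to GM-CSF or STAT5, 2 rose without tumor (median 0.93) and 0 with tumor (median -0.09). These were Ccnd2, cyclin D2 (1.46 ± 0.26, edgeR adjusted p = 0.016), and Ccl17, a chemokine of mature dendritic cells (2.33 ± 0.50, edgeR adjusted p = 0.0387). In the same comparison 4 of 12 mature dendritic cell markers rose (Cd274, Cd70, Ccr7 and Cd80, median 1.33), against 0 of 12 with tumor (median 0.01). Of 13 resting cDC1 markers 0 passed in either agonist comparison (medians -0.75 and -0.26). For the tumor without agonist, 12 of 12 mature markers lay above 0 (median 0.72) and 0 passed (edgeR). There 14 of 16 GM-CSF or STAT5 genes also lay above 0 (median 0.83). Summed, the mature markers gave 13220, 4851 and 15980 CPM in Tumor-NoCD40 and 9021, 5380 and 3677 in NoTumor-NoCD40. The agonist effect was not found to differ with the tumor for any of these 12 markers (edgeR, median difference -1.30). Whether the pathway genes changed apart from the balance of mature and resting cells was not tested.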

How the data were processed

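The authors deposited expected counts per transcript (estimated read counts, not normalized) and TPM per transcript (scaled by transcript length and to 1 total per library) for 12 libraries. Libraries were made with a strand-specific kit, per the labels' protocols, and quantified with Salmon on mm10, per the submitters' processing notes. The names of the deposited data speak of sailfish instead, so the quantifier is not certain. Version and annotation release are not given in the sources used here. With GENCODE M21, 136176 of 136288 transcripts fell into 53458 genes. The remaining 112 carried 0.0279% to 0.0457% of a library's counts. Counts were summed per gene and rounded.

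edgeR 4.0.16 in R 4.3.3 was used with TMM normalization (factors 0.936 to 1.074), filterByExpr (minimum count 10, minimum total 15), a model of the 4 groups over 12 libraries (glmQLFit with legacy = FALSE), the quasi-likelihood test and p-values adjusted by Benjamini-Hochberg over 18095 genes (two-sided, threshold 0.05). The SE is the absolute log2 fold change divided by the square root of F. Fold changes compare agonist with none, or tumor with none. Intervals are 95%. Correlations used 100000 permutations (two-sided). Alternatives used DESeq2 1.42.0 and limma 3.58.1. The test script was tested on simulated data. Named genes are the members, up to 4 genes past the threshold per list by lowest p, and the 3 genes with the highest r per member (mean of at least 5 CPM, log2(CPM + 1)), of which 1 is not reported here; ligands, receptors and marker genes named with other values were chosen after their values were seen. The members and lists were chosen with earlier results of these data known. Full-length coding transcripts are coding ones of at least 1000 bases.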

Additional observations from a re-analysis of the deposited data

How the results depend on the processing

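Library depth limits Kdr and Csf1r, which had few counts, and 3 libraries per group limit every test. Over 12 runs leaving out 1 library each, the number of members called was 0 to 1 for the agonist without tumor, 0 to 2 with tumor, 0 to 1 for the tumor with agonist and 1 to 2 for the agonist averaged over tumor states. The number called for the agonist without tumor was 0 in limma-voom, in limma-trend on log2(TPM + 1) and on log2(TPM + 0.1), with only the libraries compared and with protein coding transcripts only. For the agonist with tumor it was 0 in limma-voom, in limma-trend with either pseudocount, with only the libraries compared, with protein coding transcripts only and with legacy = TRUE, and 2 in DESeq2. For the tumor with agonist it was 1 in DESeq2 and without the filter on low counts. For the average it was 0 in limma-trend on log2(TPM + 1) and 2 in DESeq2 and without the 4 libraries of 091318, an alternative chosen after seeing the data. Without those libraries Kdr itself did not pass without tumor (2.07, edgeR adjusted p = 0.0519) or with tumor (2.11, edgeR adjusted p = 0.0988). Kit passed there without tumor and Csf2rb2 with tumor, while Kdr passed in the average (edgeR, adjusted p = 0.0126). Over all genes, runs leaving out 1 library called 22 to 946 genes for the agonist without tumor, 26 to 226 with tumor, 0 to 71 for the tumor with agonist and 221 to 870 in the average, and DESeq2 called 913, 316, 166 and 962. The adjusted p of Kdr ran from 9.87e-05 to 0.24 without tumor, 3.72e-05 to 0.208 with tumor and 2.33e-10 to 0.0511 in the average, passing in 9 of 24, 14 of 24 and 22 of 23 alternatives. Apart from limits of size, the cause of these differences was not tested.

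With the title number as a replicate block, the members called were 0 for the agonist without tumor (Kdr 2.39, edgeR adjusted p = 0.0654), 1 with tumor (Kdr, adjusted p = 0.00557), 1 for the tumor with agonist (Csf1r) and 1 in the average. Deviations from the group means of libraries with the same title number correlated at -0.003 to 0.462 (median 0.104, 8 of 15 pairs over 0.1). For different numbers the median was -0.051, with 4 of 39 pairs over 0.1. Libraries of the same title number were thus somewhat more alike. The main model still held no block, so its p-values leave this likeness out, and the fit with a block is given as an alternative.

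Direction changed only for small effects that did not pass. Flt3 without tumor became 0.0019 with RLE factors and in DESeq2, and 0.08 in limma-trend with pseudocount 1 or 0.1 (0.0808 and 0.0814). Flt3 for the tumor without agonist became 0.0007066 and 0.0006999 in limma-trend, Csf1r there 0.0348 and 0.11, Csf2rb for the agonist without tumor -0.28 with either, and Csf2rb for the tumor with agonist 0.36 (0.365) and 0.37. Csf2ra without tumor became 0.0204 under the block. With protein coding transcripts only, Kit with tumor became -0.10. The Csf2ra interaction became 0.21 without 091318. Leaving out 1 library reversed Flt3 without tumor (-0.0551 to 0.0276 over the runs), Csf1r for the tumor without agonist (-0.48 to 0.36), the Kdr interaction (-0.46 to 0.68), the Csf2ra interaction (-0.32 to 0.13), Kit with tumor (-0.26 to 0.96), in the average (-0.61 to 0.12) and for the tumor with agonist (-0.0784 to 0.94), and Csf2rb for the tumor with agonist (-0.21 to 0.0228).

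For the correlations with marker lists, most of the values of r given here changed sign from the main setting. Relations that changed sign had not passed there. Removing group means gave 0.525 (main -0.0368) for Csf2rb2 and -0.328 (main 0.425) for Kdr against mature markers. Against resting ones it gave -0.0221 (main 0.0238) for Flt3, 0.881 (main 0.832) for Kit (permutation p adjusted 0.0536) and 0.46 (main -0.0741) for Kdr. Removing title number means was chosen after seeing the data. It gave -0.357 (main 0.0709) for Csf1r, 0.136 (main -0.522) for Csf2ra and -0.202 (main 0.0464) for Csf2rb against mature markers. Against resting ones it gave -0.436 (main 0.0238) for Flt3, 0.399 (main 0.832) for Kit and 0.37 (main -0.176) for Csf1r. On log2(CPM + 1), r was -0.223 (main 0.0473) for Flt3 and -0.763 (main -0.661) for Kit (permutation p adjusted 0.0197) against mature markers. Against resting ones it was 0.794 (main 0.692) for Csf2ra (permutation p adjusted 0.0125).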
